A study of Mus musculus with 8 samples.

Results

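Matrix metalloproteinases (MMPs) and their tissue inhibitors (TIMPs) were described in mouse bone marrow-derived dendritic cells (BMDCs) that had been exposed to [BF/S+L/Ep], the butanol fraction of a stem and leaf extract of *Echinacea purpurea*. The 10 genes were *Mmp2*, *Mmp8*, *Mmp9*, *Mmp12*, *Mmp13*, *Mmp14*, *Mmp19*, *Timp1*, *Timp2* and *Timp3*, of 18193 genes with a probe set that the annotation gives to 1 symbol. They were chosen by their family, with *Mmp8* in view because of its signal after 12 h of [BF/S+L/Ep], and the study names *Mmp2*, *Mmp12* and *Mmp14* for the same comparison. The treatment values of these genes at 12 h are therefore given as a description with no p-value, and their calls there are counted beside those of all probe sets with nothing read from them. Together the genes had 23 probe sets, 4 of the genes had only 1, and of several probe sets the one with the highest mean log2 signal is the main value.

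The BMDCs came from the bone marrow of female BALB/c mice, 6 weeks old, and were grown in medium that by the labels held GM-CSF (200 U/mL) until day 9. They then received 75 μg/mL [BF/S+L/Ep] or the vehicle, 0.1% DMSO, for 4 h or 12 h, so that all cells had seen GM-CSF and none was analysed here before treatment. By the study's methods the extract was dissolved in DMSO, and every culture held 0.1% DMSO. Each of the 4 groups (DMSO 4 h, [BF/S+L/Ep] 4 h, DMSO 12 h and [BF/S+L/Ep] 12 h) had 2 Affymetrix arrays, 8 in all. The labels number them as replicates and the study calls them biological sample replicates of its cultures. For its fold-change rule the study also refers to 2 independent experiments, without saying which arrays belong to each. No source used here says whether separate mice or bone marrow preparations stand behind them, and the p-values measure the spread between these arrays.

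MMPs are zinc-dependent endopeptidases that are made as inactive proenzymes and cleave collagens, elastin, other matrix proteins, cytokines and chemokines. TIMPs bind the active site of MMPs and block them, and TIMP-2 also takes part in the activation of pro-MMP-2 on the cell surface by MMP-14. In DCs, MMPs are known for a part in migration through basement membranes and tissue. The arrays measured mRNA and not protein or enzyme activity.

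All values are MAS5 signals, the deposited intensity of a probe set on a linear scale, with a trimmed mean of each array close to 500. Signals of different probe sets are not set against each other, since each has its own probes. The summed signals of marker lists given below follow their brightest probe sets and are not a measure of a cell type. Background was read on each array from 83 probe sets of sensory receptor genes (smell, pheromone and taste), which have no known place in DCs. Their 95th percentile is called the background reference and lay between 66.7 and 107. At the main probe set 8 of the 10 genes were above it on all 8 arrays, *Mmp9* on 5 arrays and *Timp3* on 0 arrays. All 8 measured dendritic cell markers (*Itgax*, *H2-Ab1*, *Cd74*, *Cd209a*, *Zbtb46*, *Flt3*, *Ccr7* and *Cd86*) exceeded it on 4 arrays or more, and 8 of 9 macrophage markers did so as well. In a bulk RNA sample, fewer cells of a type and less RNA per cell cannot be told apart.

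**Figure D1:**
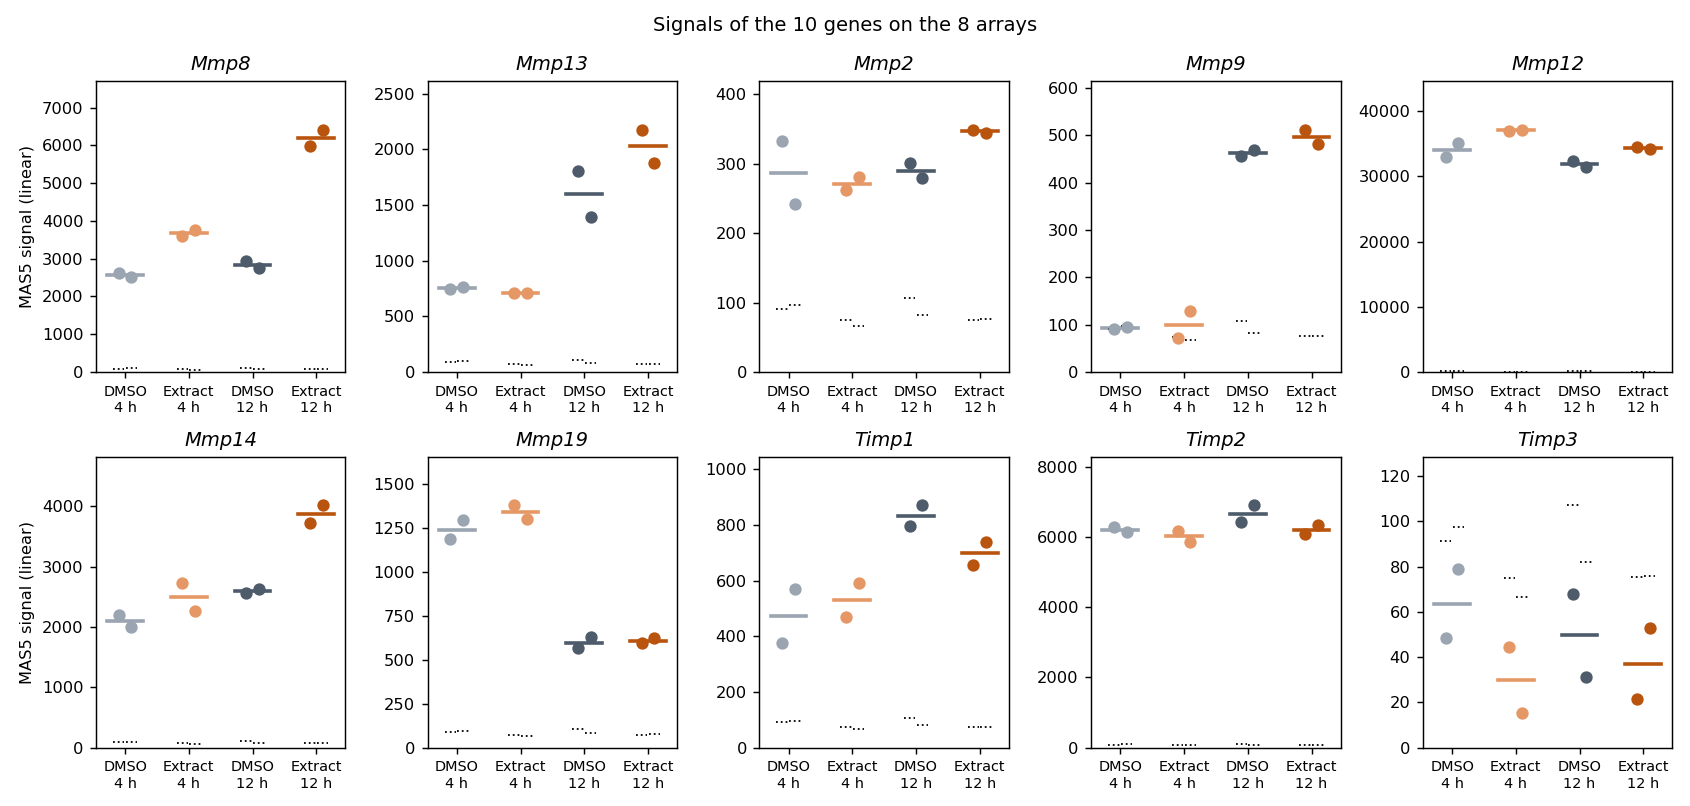
MAS5 signal (y axis, linear scale from 0) of the main probe set of each of the 10 genes, with a point per array, a bar at the mean of the 2 arrays of a group and a dotted mark at the background reference of each array; Extract stands for [BF/S+L/Ep]. *Mmp8* lies highest in both extract groups, *Mmp9* and *Mmp13* lie higher at 12 h than at 4 h with and without extract, *Mmp19* lies lower at 12 h, and *Timp3* stays under the marks.

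The genes *Mmp13*, *Mmp12* and *Mmp8* lie in 1 cluster of 10 *Mmp* genes on chromosome 9, in the order *Mmp13*, *Mmp12*, *Mmp1b*, *Mmp3*, *Mmp1a*, *Mmp10*, *Mmp8*, *Mmp27*, *Mmp20* and *Mmp7* in the RefSeq table. The 3 exceeded the background reference on every array, while *Mmp3* and *Mmp7* were above it on 1 array each and *Mmp1b*, *Mmp1a*, *Mmp10* and *Mmp20* on 0 arrays. *Mmp27* had no probe set with 1 symbol. The values of the 3 detected genes are given below for each. The largest difference of *Mmp8* was with the extract and that of *Mmp13* with time, and *Mmp12* stayed within a narrow range. At 12 h all 3 had both treated arrays above both vehicle arrays, against 15.1% of all probe sets. The genes were not tested against each other. Their start regions are shown because they lie so close together, as 60 bases before to 20 bases after the start of the RefSeq gene model (build GRCm38.p6, plus strand), at chr9:7272454-7272533, chr9:7347314-7347393 and chr9:7558369-7558448. Capitals mark the AP-1 letters (TGAGTCA or TGACTCA) and the TATA letters (TATAAA, or TTTATA where they lie on the other strand).
Mmp13: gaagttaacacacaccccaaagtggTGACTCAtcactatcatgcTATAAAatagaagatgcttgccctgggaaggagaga
Mmp12: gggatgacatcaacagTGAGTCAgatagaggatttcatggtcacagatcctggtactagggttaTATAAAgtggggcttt
Mmp8: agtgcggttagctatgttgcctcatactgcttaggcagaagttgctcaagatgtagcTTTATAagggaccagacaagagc
The *Mmp13* window and that of the later of the starts of *Mmp12* held both sets of letters, and the *Mmp8* window held the TATA letters on the minus strand and no AP-1 letters. In the whole RefSeq windows, from 250 bases before to 50 after the start and on both strands, AP-1 letters were found in 2 of 8 promoters of the 7 genes that matched, against 5.20% of 32851 mouse promoters, and TATAAA in 3 of 8, against 13.6%. GCGTG, the core of the aryl hydrocarbon receptor site, was in 3 of 8 (*Timp1*, *Timp2* and *Timp3*), against 32.4% of all. GAGGAA, the core of the PU.1 site, was in 2 of 8 (*Mmp8* and the earlier start of *Mmp12*), against 28.3%, and the *Mmp14* window held none of the letters searched. The genes not matched were *Mmp2*, *Mmp9* and *Mmp19*. A match of letters is a description of the sequence.

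**Figure D2:**
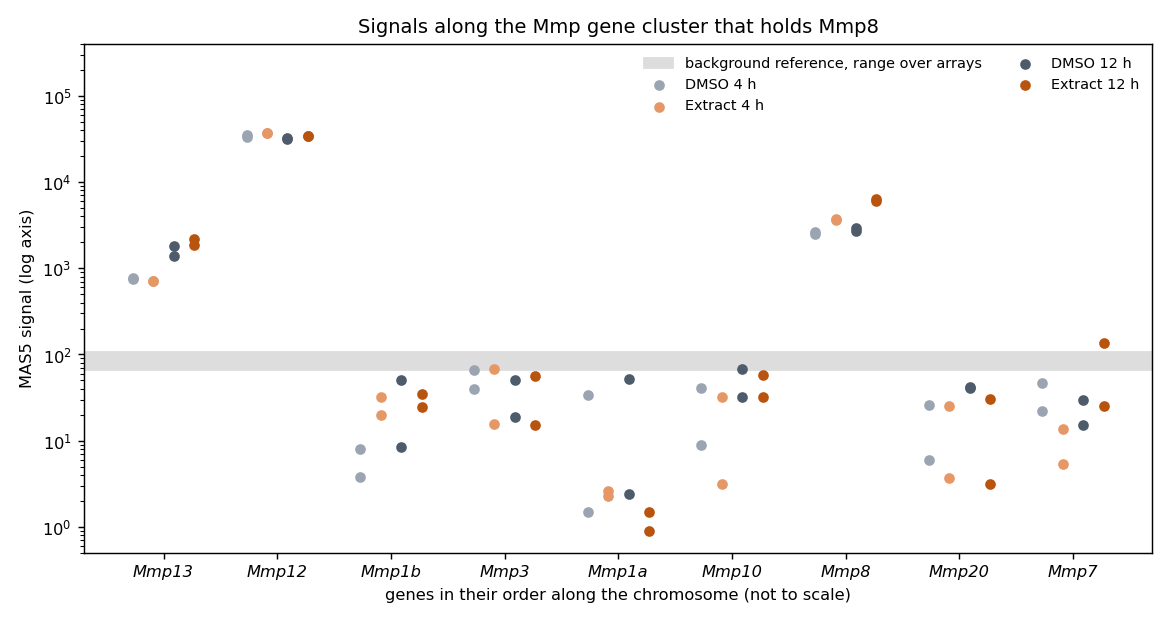
MAS5 signal (y axis, log scale) of the genes of the *Mmp* cluster on chromosome 9 that have a probe set, in their order along the chromosome and not to scale, with a point per array coloured by group and a band for the range of the background reference over the arrays. *Mmp13*, *Mmp12* and *Mmp8* lie above the band on all 8 arrays, and of the other 6 genes *Mmp7* has 1 point above the band.

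*Mmp8*, the collagenase best known from neutrophil granules, had higher signals with [BF/S+L/Ep] than with DMSO at both times. Its signal was 2609 and 2527 on the DMSO arrays and 3608 and 3753 on the [BF/S+L/Ep] arrays at 4 h. At 12 h it was 2937 and 2741 with DMSO and 5975 and 6420 with [BF/S+L/Ep]. Both treated arrays were above both vehicle arrays at each time, and the 12 h treated arrays stood above every other array. The log2 fold change was 1.13 ± 0.10 (SE, n = 2 arrays per group) at 12 h, or 2.18-fold. At 4 h, a comparison that the choice of genes did not use, it was 0.52 ± 0.10 (95% interval 0.30 to 0.73, adjusted p = 0.297 from limma, unadjusted 1.76e-04), or 1.43-fold, and did not pass. In DMSO alone the log2 fold change between the times was 0.14 ± 0.10 (adjusted p = 0.639). The means ran from [BF/S+L/Ep] 12 h (6198 ± 315, SD) over [BF/S+L/Ep] 4 h (3681 ± 102) and DMSO 12 h (2839 ± 139) to DMSO 4 h (2568 ± 58.3), and no neighbours in this order overlapped. The difference between the responses at 12 h and 4 h, which holds the 12 h comparison and is a description, was 0.61 ± 0.14 on the log2 scale. Without [BF/S+L/Ep] 12 h replicate 2 the log2 fold change at 12 h was 1.07. The call at 12 h, from which nothing is read, did not hold in every setting tried. Among others it was lost with a moderation of the spread that ignored intensity.

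Since *Mmp8* is a neutrophil gene, the neutrophil markers are given beside it. Of 11 measured, *S100a8*, *S100a9*, *Ngp* and *Csf3r* exceeded the background reference on every array, while the granule protease genes *Elane*, *Prtn3* and *Ctsg* and the chemokine receptor gene *Cxcr2* were above it on 0 arrays. *Mpo* and *Camp* were above it on 2 arrays and *Ltf* on 1. The summed signal of the list lay between 3527 and 4318 with [BF/S+L/Ep] and between 3654.5 and 3817 with DMSO at 4 h. At 12 h it lay between 3529 and 4054 with [BF/S+L/Ep] and between 4005 and 4032 with DMSO. The sums thus overlapped at both times, and most of each was *S100a8*, which read 1986.5 to 2977.9 over the arrays. In either treatment comparison 0 of the 11 markers were called, where 0.00444% (4 h) and 0.0200% (12 h) of all probe sets were called. At such shares nothing is read from this count, and the part of neutrophils in the signal of *Mmp8* was not tested.

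*Mmp13*, the other collagenase, rose with time in the vehicle cultures. In DMSO its signal was 748.8 and 762.7 at 4 h and 1806 and 1391 at 12 h. The arrays of the times did not overlap, with a log2 fold change of 1.07 ± 0.14 (SE, adjusted p = 0.00132 from limma), or 2.10-fold. With [BF/S+L/Ep] it was 708.2 and 710.4 at 4 h and 2177 and 1875 at 12 h. The treated arrays lay below the vehicle arrays at 4 h (log2 fold change -0.09 ± 0.14, adjusted p = 0.9996) and above them at 12 h (0.35 ± 0.14, as a description). At 12 h this value rested on the DMSO arrays, which differed 1.30-fold: it was 0.54 without DMSO 12 h replicate 1 and 0.16 without replicate 2.

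The gelatinases behaved differently from each other. *Mmp9* was near the background at 4 h and clearly above it at 12 h. Its signal in DMSO was 90.2 and 94.7 at 4 h, just under the references of 91.5 and 97.28, and 456.9 and 470.0 at 12 h. This is at least 4.91-fold higher at 12 h, with the reference of each 4 h array as its floor. The adjusted p of 0.00106 from limma belongs to the signals as deposited and not to this bound, which was not tested. The second probe set, at 69.0 and 18.6 and then at 218.8 and 270.3, also rose, at least 2.58-fold by the same floor. Its adjusted p of 0.0236 from limma likewise belongs to the deposited signals, and its bound was not tested. With [BF/S+L/Ep] the main probe set was at 71.2 and 129.3 at 4 h, where 1 array was above its reference, and at 512.3 and 481.1 at 12 h. The treated arrays at 12 h lay just above the vehicle arrays, 1.07-fold in the means, and the log2 fold change of 0.10 ± 0.30 was smaller than its error. At the second probe set the treated arrays, at 209.2 and 258.1, overlapped the vehicle arrays at 12 h (-0.07 ± 0.57).

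*Mmp2*, the gelatinase that MMP-14 activates, exceeded the background reference on every array at both of its probe sets. At the main one the signal was 332.8 and 242.0 with DMSO and 261.9 and 281.0 with [BF/S+L/Ep] at 4 h. At 12 h it was 301.5 and 278.9 with DMSO and 349.4 and 344.3 with [BF/S+L/Ep]. The groups overlapped at 4 h (log2 fold change -0.07 ± 0.22, adjusted p = 0.9996), and at 12 h both treated arrays were above both vehicle arrays (0.26 ± 0.22, as a description). The other probe set was also higher with [BF/S+L/Ep] at 12 h, at 319.9 and 273.4 against 215.3 and 222.0. In DMSO the times overlapped at the main probe set (0.03 ± 0.22, adjusted p = 0.982).

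*Mmp12*, which encodes macrophage elastase, stayed within a range of 31417.1 to 37200.0 over the 8 arrays. It was 33027.1 and 35205.7 with DMSO and 36906.3 and 37200.0 with [BF/S+L/Ep] at 4 h. At 12 h it was 32409.8 and 31417.1 with DMSO and 34505.3 and 34284.7 with [BF/S+L/Ep]. Treated arrays were above vehicle arrays at each time, 1.09-fold in the means at 4 h and 1.08-fold at 12 h. The log2 fold change was 0.12 ± 0.10 at 4 h (adjusted p = 0.9996 from limma) and 0.11 ± 0.10 at 12 h, and in DMSO it was -0.10 ± 0.10 between the times (adjusted p = 0.807). The highest signals on the arrays lay between 63008.2 and 72771.2. Whether the single probes of this bright probe set were near saturation was not tested.

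*Mmp14*, which encodes the membrane-type enzyme that cleaves collagen at the cell surface and activates pro-MMP-2, had 3 probe sets, each detected on all 8 arrays by the reference. At the main one the signal was 2206 and 1995 with DMSO and 2724 and 2261 with [BF/S+L/Ep] at 4 h. At 12 h it was 2572 and 2628 with DMSO and 3718 and 4020.1 with [BF/S+L/Ep]. Treated arrays were above vehicle arrays at both times. At 12 h the log2 fold changes of the 3 probe sets were close to each other, at 0.57 ± 0.12, 0.59 ± 0.19 and 0.58 ± 0.19, or about 1.49-fold at the main one. At 4 h they were 0.24 ± 0.12 (adjusted p = 0.997), 0.40 ± 0.19 (0.997) and 0.53 ± 0.19 (0.977), and none passed by limma. The course in DMSO differed among the probe sets, with 0.31 ± 0.12 (adjusted p = 0.271) at the main one, 0.79 ± 0.19 (adjusted p = 0.0499925) at the second and 1.12 ± 0.19 (adjusted p = 0.00651) at the third. Both of the dimmer probe sets thus passed, the second of them at the edge of the threshold, and the main one did not. Which part of the transcript each probe set covers was not analysed here.

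*Mmp19*, a secreted MMP with broad substrates that is known from myeloid cells and skin, fell with time. In DMSO the signal was 1186 and 1292 at 4 h and 567.0 and 628.7 at 12 h, with no overlap (log2 fold change -1.05 ± 0.13, adjusted p = 8.48e-04 from limma). With [BF/S+L/Ep] it was 1379 and 1298 at 4 h and 595.5 and 624.0 at 12 h, so that the 12 h groups overlapped. At the main probe set the treatment values were 0.11 ± 0.13 at 4 h (adjusted p = 0.9996 from limma) and 0.03 ± 0.13 at 12 h. The other probe set was lower at 12 h in DMSO as well (-0.90 ± 0.33) but did not pass (adjusted p = 0.256 from limma), and its replicate arrays differed up to 1.78-fold. Its treatment values were larger, at 0.24 ± 0.33 at 4 h and 0.76 ± 0.33 at 12 h, the latter as a description. Treated and vehicle arrays overlapped there at both times.

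**Figure D3:**
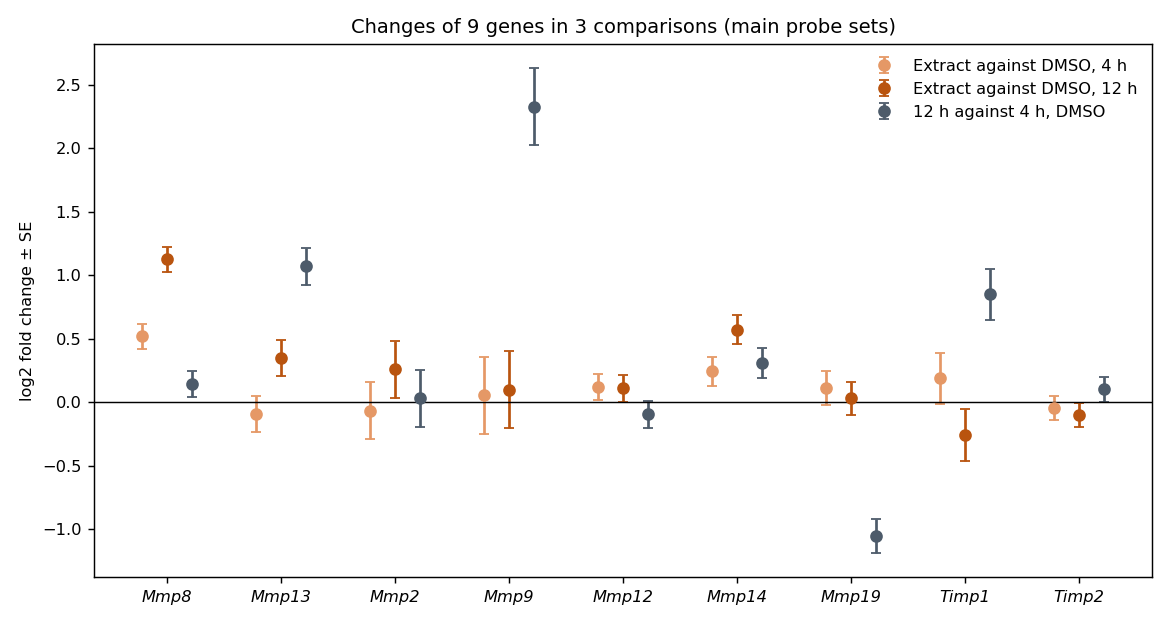
Log2 fold change with its standard error (y axis) of the main probe set of 9 genes in the comparisons of [BF/S+L/Ep] (Extract) against DMSO at 4 h and at 12 h and of 12 h against 4 h in DMSO, from limma with 2 arrays per group. *Mmp8* lies at 0.52 at 4 h, which did not pass, and at 1.13 at 12 h, where *Mmp14* lies at 0.57, both as a description. Over time *Mmp13* (1.07) and *Mmp19* (-1.05) passed, *Timp1* (0.85) just missed the threshold, and the point of *Mmp9*, which passed, is measured against a group under the background reference and stands for at least 4.91-fold.

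At their main probe sets, *Timp1* had lower signals with [BF/S+L/Ep] than with DMSO at 12 h and *Timp2* was steady. *Timp3* was under the background reference. *Timp1*, which encodes a secreted inhibitor that binds pro-MMP-9, was at 375.1 and 570.6 with DMSO and 469.6 and 591.9 with [BF/S+L/Ep] at 4 h, and at 796.7 and 871.0 with DMSO and 656.2 and 740.0 with [BF/S+L/Ep] at 12 h. The treated arrays overlapped the vehicle arrays at 4 h (log2 fold change 0.19 ± 0.20, adjusted p = 0.9996) and lay below them at 12 h (-0.26 ± 0.20). In DMSO both 12 h arrays were above both 4 h arrays, and the log2 fold change of 0.85 ± 0.20 just missed the threshold (adjusted p = 0.0502 from limma). It rested on the 4 h arrays, being 0.55 (adjusted p = 0.353) without DMSO 4 h replicate 1 and 1.15 (adjusted p = 0.0351) without replicate 2, and it passed with the replicate number as a block (0.0157).

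*Timp2*, whose protein blocks MMPs and links pro-MMP-2 to MMP-14, was steady at its main probe set, within 5867.7 to 6905 over the 8 arrays. It was 6271 and 6144 with DMSO and 6171 and 5867.7 with [BF/S+L/Ep] at 4 h. At 12 h it was 6413 and 6905 with DMSO and 6074 and 6332 with [BF/S+L/Ep]. The log2 fold changes were -0.04 ± 0.10 at 4 h (adjusted p = 0.9996), -0.10 ± 0.10 at 12 h and 0.10 ± 0.10 between the times in DMSO (adjusted p = 0.771). Of its 6 probe sets, 5 were above the reference on all arrays, and at 12 h their signs were mixed, from -0.12 to 0.41. Both treated arrays lay below both vehicle arrays at the main probe set. They lay above them at a probe set with 1324.8 and 1300.0 against 1192.3 and 1248.6, and at another with 196.2 and 331.9 against 188.1 and 195.8. *Timp3*, whose protein is held in the matrix, read 15.4 to 78.9 at the main probe set, and no group had an array above its reference, so no fold is given. Of its other probe sets 1 was also above the reference on 0 arrays and the others on 1 array each.

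**Figure D4:**
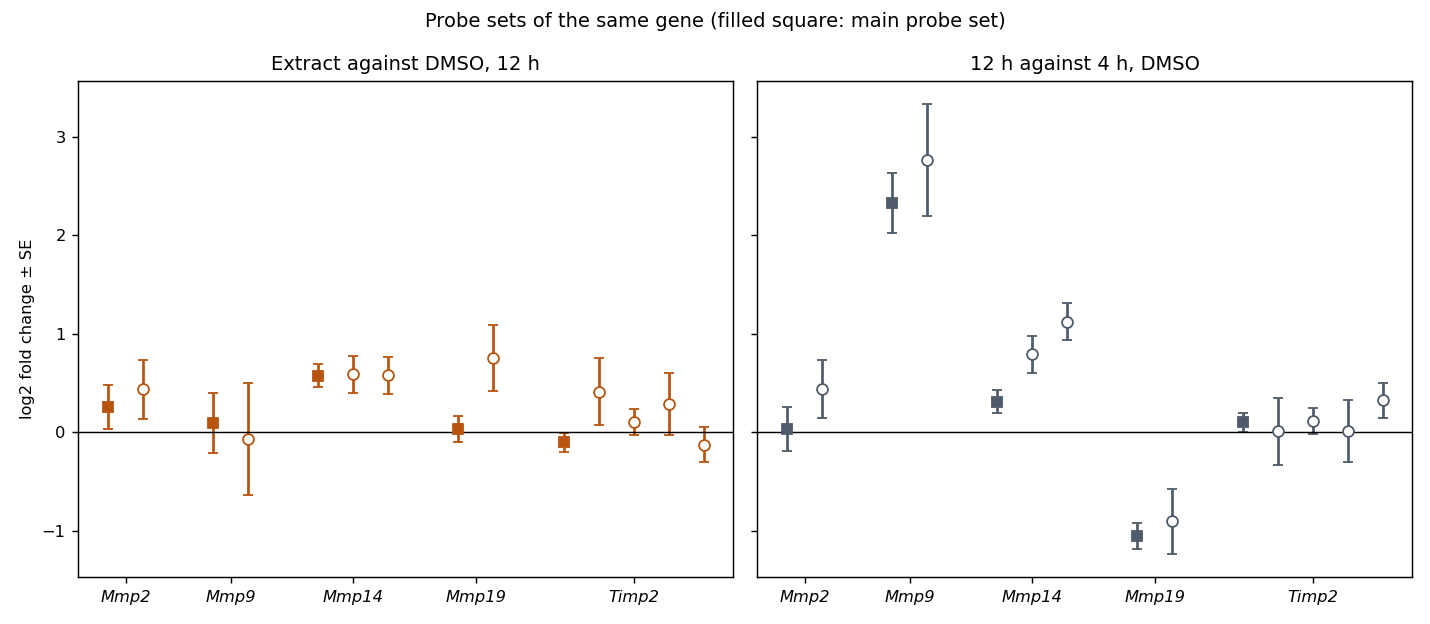
Log2 fold change with its standard error (y axis) of probe sets that exceeded the reference on 4 arrays or more, for the 5 genes with several such probe sets, at 12 h of [BF/S+L/Ep] (Extract) against DMSO (left) and at 12 h against 4 h in DMSO (right); a filled square marks the main probe set. The 3 probe sets of *Mmp14* lie between 0.57 and 0.59 on the left and between 0.31 and 1.12 on the right.

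Over the family, 0 of the 10 genes were called at 4 h of [BF/S+L/Ep] (adjusted p under 0.05 by limma at the main probe set), where 0.00444% of 45037 probe sets were called. At an unadjusted p under 0.05 there was 1, *Mmp8*, against 4.97% of all probe sets. Over all 23 probe sets, 3 reached an unadjusted p under 0.05 at 4 h, those of *Mmp8* and *Mmp14* being higher and that of *Timp2* lower. Both treated arrays were above both vehicle arrays for 4 genes (*Mmp8*, *Mmp12*, *Mmp14* and *Mmp19*) and below them for 2 (*Mmp13* and *Timp3*), against 15.1% and 17.6% of all probe sets. *Timp3* was under the background reference in both groups, so its order is not read as a direction.

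At 12 h, 1 of the 10 genes was called, *Mmp8*, where 0.0200% of all probe sets were called, and 3 (*Mmp8*, *Mmp13* and *Mmp14*) had an unadjusted p under 0.05, against 5.96%. At the main probe sets, both treated arrays were above both vehicle arrays for 6 genes (*Mmp2*, *Mmp8*, *Mmp9*, *Mmp12*, *Mmp13* and *Mmp14*), against 15.1% of all probe sets, and below them for 2 (*Timp1* and *Timp2*), against 19.7%. The second probe set of *Mmp9* overlapped, and the other probe sets of *Timp2* overlapped or lay the opposite way. The median log2 fold change of the 10 genes was 0.08 at 4 h and 0.10 at 12 h, with medians of -0.02 and -0.03 over all probe sets, and *Timp3* is counted in these medians although it lay under the reference. For the difference between the responses at 12 h and 4 h, 0 of 10 genes were called by limma, as were 0% of all probe sets, and 2 (*Mmp8* and *Mmp13*) had an unadjusted p under 0.05, against 3.66%. The counts at 12 h and for this difference, which holds the 12 h values, come from the comparison used to choose the genes, and nothing is read from them.

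Between 4 h and 12 h in DMSO, 2 of the 10 genes rose (*Mmp9* and *Mmp13*) and 1 fell (*Mmp19*), where 2.10% of all probe sets were called in either direction. At an unadjusted p under 0.05 there were 5, with *Mmp14* and *Timp1* besides, against 12.4%. Both 12 h arrays were above both 4 h arrays for 6 genes (*Mmp8*, *Mmp9*, *Mmp13*, *Mmp14*, *Timp1* and *Timp2*), against 22.5% of all probe sets, and below them for 2 (*Mmp12* and *Mmp19*), against 19.1%. The median log2 fold change of the 10 genes was 0.12, and 0.03 over all probe sets. This comparison shares its DMSO arrays with both treatment comparisons. All 3 calls were kept without any 1 array, and all 3 were lost with a moderation that ignored intensity (adjusted p = 0.125 for *Mmp9*, 0.241 for *Mmp13* and 0.175 for *Mmp19*), a setting in which no probe set of the array was called in any comparison.

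With [BF/S+L/Ep] the courses of the same genes from 4 h to 12 h went the same way as in DMSO. *Mmp9* is given no ratio, since 3 of its 4 arrays at 4 h were under the reference. The ratio of the mean signals was 2.86 for *Mmp13* (2.12 in DMSO) and 0.456 for *Mmp19* (0.482 in DMSO). For *Mmp8* it was 1.68 with [BF/S+L/Ep] and 1.11 in DMSO, and for *Mmp14* 1.55 and 1.24. *Timp1* had the smaller ratio with [BF/S+L/Ep], at 1.32 against 1.76.

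Markers of dendritic and other cells also moved with time in DMSO, where 2.10% of all probe sets were called. Of the 8 dendritic cell markers *Zbtb46*, which encodes a transcription factor of conventional DCs, rose (log2 fold change 0.78, adjusted p = 0.00930 from limma). *Ccr7* lay higher (0.57, adjusted p = 0.0804) and *Itgax* lower (-0.38, adjusted p = 0.0831), and neither passed. The summed signal of the list was between 129234.2 and 131645.2 at 4 h and between 128426.3 and 136904.4 at 12 h. Of 9 measured macrophage markers 4 rose (*Adgre1*, *C1qa*, *C1qb* and *C1qc*). *Mertk* lay higher (0.61, adjusted p = 0.0530 from limma) and *Fcgr1* lower (-0.31, adjusted p = 0.274), and neither passed. The summed signal of the list was between 60812.5 and 62286.8 at 4 h and between 67329.9 and 68341.6 at 12 h. Of 6 osteoclast markers, *Acp5* rose (log2 fold change 0.67, adjusted p = 0.0118 from limma) and *Dcstamp* fell (-0.79, adjusted p = 5.15e-04). *Calcr* was above the background reference on 0 arrays. The sum was between 15525.8 and 15889.0 at 4 h and between 11592.4 and 12145.6 at 12 h. Most of it was *Dcstamp*, at 12999.1 and 12698.3 at 4 h and 7364.3 and 7517.1 at 12 h. Of the neutrophil markers *Csf3r* rose (log2 fold change 1.99, adjusted p = 0.00111 from limma), from 151.8 and 206.6 to 672.4 and 741.1. The others above the reference on every array, *S100a8* (-0.09), *S100a9* (-0.24) and *Ngp* (-0.28), lay lower and did not pass. The sum of the list was between 3654.5 and 3817 and then between 4005 and 4032. Of 5 eosinophil markers *Siglecf* fell (-0.64, adjusted p = 0.0124 from limma) and the others were above the reference on 0 arrays. The sum, nearly all of it *Siglecf*, was between 3179.5 and 3256 and then between 1911 and 2308. Of 8 stromal markers 3 exceeded the reference on 4 arrays or more and 0 on all. Their sums, of 416.6 to 468.0 and 514.2 to 598.7, hold many signals under the reference. Of 6 mast cell markers *Kit* alone exceeded the reference on 4 arrays or more (on 8 arrays), and 0 were called in any comparison. No B cell, T cell or NK cell marker was above the reference on 4 arrays. The part of these cells in the courses of *Mmp9*, *Mmp13* and *Mmp19* was not tested.

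Of the other genes of the pathway, none was called in a treatment comparison, where 0.00444% (4 h) and 0.0200% (12 h) of all probe sets were called. Of 11 other MMPs with a probe set, only *Mmp23* and *Mmp24* exceeded the reference on 4 arrays or more, and 0 of the 11 were called by limma or reached an unadjusted p under 0.05 in any comparison. Of 10 inhibitors and partners of MMPs, 0 were called either, with 2 at an unadjusted p under 0.05 by limma over time in DMSO, against 12.4% of all probe sets. Those above the reference with the smallest p in DMSO over time were *Bsg*, which encodes the MMP inducer basigin (log2 fold change -0.50, adjusted p = 0.120), *Cd44*, a receptor that can hold MMP-9 at the cell surface (0.25, adjusted p = 0.327), and *Thbs1*, which encodes thrombospondin-1 (-0.34, adjusted p = 0.407).

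With time in DMSO, 1 of 13 genes of the ADAM and ADAMTS families rose, *Adam17*, whose enzyme sheds TNF from the cell surface (log2 fold change 0.51, adjusted p = 0.0152). Of 16 matrix substrates 1 rose, *Tnc*, which encodes tenascin C (1.14, adjusted p = 0.0482). The list of AP-1 and ETS factors, transcription factors known to act on MMP promoters, also holds *Cebpb*, of the C/EBP family. Of its 12 genes 2 rose, *Fos* (0.96, adjusted p = 0.00387 from limma) and *Ets2* (0.56, adjusted p = 0.0475). No gene of these lists was called lower. Over all probe sets 2.10% were called in either direction, and the lists were not tested as sets. The median log2 fold change was 0.01 for the ADAM list, 0.51 for the substrates and 0.21 for the factors, and 0.03 over all probe sets. Only 8 of the 13, 10 of the 16 and 9 of the 12 genes exceeded the reference on 4 arrays or more. The medians of these lists, here and with [BF/S+L/Ep], include the dimmer genes, and no rise of a list is read from them.

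With [BF/S+L/Ep] the medians of the same lists were -0.18, 0.05 and 0.12 at 4 h and -0.06, 0.04 and 0.18 at 12 h. At an unadjusted p under 0.05 by limma, 2 genes of the list of factors were higher at 4 h, where 4.97% of all probe sets reached it. They were *Junb* (0.43, adjusted p = 0.969) and the C/EBP factor gene *Cebpb* (0.29, adjusted p = 0.988). At 12 h there were also 2, *Cebpb* (0.25, adjusted p = 0.820) and *Fosb*, which was above the reference on 0 arrays, against 5.96%. In the ADAM list *Adam15* was lower at 4 h (-0.37, adjusted p = 0.994) and *Adam19* higher at 12 h (0.35, adjusted p = 0.812). None of these passed after adjustment by limma, and no matrix substrate reached an unadjusted p under 0.05 with [BF/S+L/Ep].

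The pattern of *Mmp8* over the 8 arrays was compared with those of 3028 probe sets of 2543 genes that exceeded the reference on every array and ranged over at least 1 on the log2 scale. The 10 genes most like it, by Pearson's r of the log2 signals, were *Asb2* (0.98), *Loxl3* (0.96), *Il6st* (0.95), *Tma16* (0.94), *Slc9a3r2* (0.94), *Phip* (0.94), *Mmd* (0.94), *Stap1* (0.94), *B430306N03Rik* (0.93) and *Usp18* (0.93). The 8 arrays form 4 groups and are shared by all these genes, so r follows the group means and carries no p. *Asb2*, which encodes the substrate receptor of a ubiquitin ligase, was at 252.0 and 239.2 with DMSO and 397.7 and 459.9 with [BF/S+L/Ep] at 4 h, and at 263.1 and 243.0 with DMSO and 710.8 and 682.6 with [BF/S+L/Ep] at 12 h. *Loxl3*, which encodes a lysyl oxidase that cross-links collagen and elastin, ran from 208.8 to 337.2 over the 4 h arrays and reached 479.9 and 455.9 with [BF/S+L/Ep] at 12 h. *Il6st*, which encodes the shared receptor chain gp130, was at 950.3 and 937.5 and at 1497 and 1578 at 4 h, and at 1226 and 1146 and at 1873 and 1940.1 at 12 h, in the order DMSO and [BF/S+L/Ep]. In each of these genes the 12 h treated arrays were the highest. Among the members, *Mmp14* was the nearest to *Mmp8* (r = 0.91), and of the 8 members above the reference on every array the most opposite pair was *Mmp13* and *Mmp19* (r = -0.97).

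**Figure D5:**
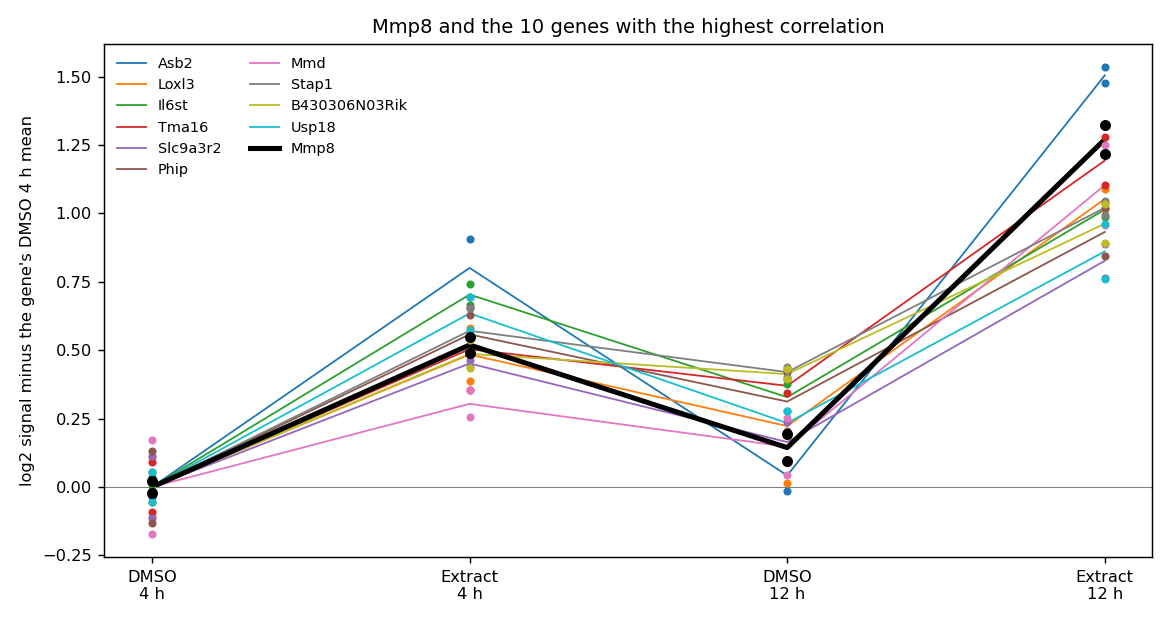
Log2 signal minus the mean of the gene's DMSO 4 h arrays (y axis) for *Mmp8* (black) and the 10 genes with the highest Pearson's r to it, with a point per array and lines through the means of the 4 groups; Extract stands for [BF/S+L/Ep]. All 11 genes have their highest mean with [BF/S+L/Ep] at 12 h.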

How the data were processed

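The intensity values are those the authors deposited: linear MAS5 signals that the authors made from scanned Affymetrix arrays, with 1 value for each probe set of an array. No MAS5 version is given in the sources used here. The labels give 10 μg of RNA per array and the methods less, and 200 U/mL GM-CSF where the methods give more. Of 45101 probe sets, 64 controls were left out. Of the 45037 tested, 34945 have 1 symbol in GEO's platform annotation, 932 several and 9160 none listed. The share of probe sets above the background reference was 48.8% to 54.9% per array. The reference leaves out 8 probe sets whose symbols begin like those of receptors but name pseudogenes or other genes.

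A limma model (limma 3.58.1 and statmod 1.5.0 in R 4.3.3) with 1 mean per group was fitted to the log2 signals of the 8 arrays, with moderation that follows the intensity (4 residual and 8.83 prior degrees of freedom). All p-values are two-sided, adjusted over 45037 probe sets by the Benjamini-Hochberg method, and called under 0.05. A group counts as under the reference only with both arrays under it. The fit was tested on simulated data. Alternatives were quantile normalization, centring on the median, an offset of 50, no trend, robust moderation, a filter on dim probe sets, a block for the replicate number, a fit to only the 4 arrays compared, each array left out, another main probe set, Spearman's rho and the 99th percentile as reference. Figures were drawn with matplotlib 3.10.9 (Python 3.11.15, pandas 2.3.3).

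The genes, the lists and the tests were chosen with earlier results of these data known. All 10 members are named at their main probe set. Of a pathway list, the genes called are named, and where no gene of the list was called in any comparison, the 3 above the reference with the smallest p over time in DMSO. The arrays carry no reads, and their number limits the precision. Sequences are from RefSeq (GRCm38.p6). Protein sequences were not used here.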

Additional observations from a re-analysis of the deposited data

How the results depend on the processing

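The count of called genes over time in DMSO was 0 without the intensity trend and 3 or 4 in every other setting tried, and it was 3 to 4 without 1 array. At 12 h of [BF/S+L/Ep] the count was 0 without the intensity trend and 0 to 1 without 1 array, and at 4 h and for the difference of the responses it was 0 in every setting tried. The cause was not tested. The replicate number as a block gave 0 genes at 4 h, 1 at 12 h and 4 over time in DMSO, with *Timp1* added (adjusted p = 0.0157), and changed no other call. The numbers were not taken as pairs, since the deviations of same-numbered arrays correlated between -0.09 and 0.26. *Timp1* also passed with the filter on dim probe sets (0.0345) and with only the 4 arrays compared (0.0468). Over all probe sets, the count over time was 948 (533 higher, 415 lower), 505 under median centring (215 of them higher, 290 lower) and 310 to 1013 without 1 array, and at 12 h it was 9, with 4 under the offset, 3 with only the 4 arrays compared and 0 to 12 without 1 array. Without DMSO 12 h replicate 2 the median of all probe sets over time was 0.11.

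*Timp3* is given no value here, since its main probe set was under the background reference on every array. For the other members, signs turned only in values that were near 0 or not above their error. At 4 h these were *Mmp2* (-0.29 to 0.16 without 1 array), *Mmp9* (-0.38 to 0.48), *Timp1* (-0.11 to 0.49) and *Timp2* (0.010 with median centring). At 12 h this held for *Mmp19* (-0.044 to 0.10 without 1 array). Over time in DMSO it was *Mmp2* (-0.028 with quantile normalization, -0.044 with median centring and -0.20 to 0.26 without 1 array). For the difference of the responses they were *Mmp9* (-0.014 with quantile normalization and -0.39 to 0.48 without 1 array) and *Mmp12* (0.051 with quantile normalization, 0.0063 with median centring and -0.058 to 0.034 without 1 array). Of the 10 genes most like *Mmp8*, 6 were also among the 10 by Spearman's rho.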
